A study of Mus musculus with 6 samples.

Results

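The cytosolic ribosomal protein genes were taken from the count table by symbol: Rpl or Rps followed by a number, with the usual paralog endings, together with Rplp0, Rplp1, Rplp2 and Rpsa. This gave 86 of 24956 gene rows, 53 for the large subunit of the ribosome and 33 for the small subunit. Of these, 84 passed the filter on low counts and were tested among 14520 genes, and the other two, Rpl26 and Rpl10l, did not pass. The GENCODE annotation classes Rpl32l and Rps4l as processed pseudogenes. The remaining members are protein coding.

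The RNA came from microglia, the resident macrophages of the brain, which were sorted by flow cytometry and sequenced in bulk. All mice were of the 3XTg-AD strain, an Alzheimer's disease model that carries mutant human APP and MAPT transgenes, driven by the neuronal Thy1 promoter. They were 7 months old, and over 4 weeks were dosed at intervals of 4 days with 25 μg of antibody. The anti-NK1.1 group of 3 libraries received an antibody to NK1.1, a receptor on natural killer cells, and the isotype group of 3 libraries received a control antibody. The antibody is thus the only labelled difference between the groups, and no library came from mice without the transgenes or without an antibody. The labels do not say whether a library is from 1 mouse or a pool, so p-values measure the spread between these libraries.

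Each cytosolic ribosome is built from ribosomal RNA and one copy of nearly every ribosomal protein, so cells make these proteins in near-equal amounts. Most of the messages are short and abundant, and they begin with a tract of pyrimidines through which the mTOR pathway regulates their translation. In microglia, as in other macrophages, protein synthesis shifts with growth and activation. Several ribosomal proteins have relatives encoded by a second gene, and many have processed pseudogene copies scattered over the genome.

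Libraries held 26893620 to 36098252 gene counts and 14606 to 16210 detected genes. All 17 listed microglia markers were tested, with a summed level of 55744 to 58679 scaled counts per 1000000 (CPM) in the isotype group and 61760 to 67561 CPM in the anti-NK1.1 group. Markers of other cells were present too: the 20 listed genes of neutrophils and their precursors summed to 89246 to 116866 CPM and to 40417 to 162378 CPM in these groups. The 15 neuronal markers summed to 59.4 to 193 CPM and to 252 to 713 CPM, and the 16 oligodendrocyte lineage markers to 312 to 423 CPM and to 793 to 945 CPM. In bulk RNA, fewer cells of a type and less RNA per cell cannot be told apart.

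The start of the message carries the pyrimidine tract, so the annotated starts were compared first. RefSeq promoters (assembly GRCm38.p6, 250 bases before to 50 bases after the start) were matched for 63 members whose start lay within 500 bases of the GENCODE start. In the 30 bases centred on the start, read on the transcript strand, an unbroken run of at least 8 C or T stood in 39.7% of members and 11.7% of all 16749 promoters. At least 1 of 3 shorter pyrimidine motifs (the motif CTTTTC, the motif CTTTCC and the motif CCTTTC) stood in 15 members, 23.8%, against 2.97% of all promoters. These motifs can overlap one another within a run. Part of the 30 bases lies before the annotated start and so outside the message. The first base of the message itself was C or T in 44.4% of members and 22.7% of all promoters. Over the 300 bases and on either strand, TTCCGG, a core of ETS factor sites, was in 49.2% of members and 19.7% of all promoters. GATGGC, a core of YY1 sites, was in 22.2% and 13.9%. The windows below belong to the named members with the smallest p in the comparison of groups that have a promoter in the table, and show how far the annotated starts differ in this feature. Each runs in the direction of transcription with 15 bases on either side of the start, and capitals mark its longest run of C and T.
Rps19: ccgcacggtgagtgagggCTCTgggtcgcg
Rps15: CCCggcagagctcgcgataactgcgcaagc
Rpsa: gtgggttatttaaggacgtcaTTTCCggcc
Rpl13: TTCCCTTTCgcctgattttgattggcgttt
Rpl18: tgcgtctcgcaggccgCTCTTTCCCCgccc
Rpl32l: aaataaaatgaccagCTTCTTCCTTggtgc
Rps2: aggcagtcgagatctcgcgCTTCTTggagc
Rplp0: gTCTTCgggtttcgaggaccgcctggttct
Rpl12: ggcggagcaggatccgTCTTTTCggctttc
Rps18: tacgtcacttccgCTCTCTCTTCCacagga

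The runs span 3 bases at Rps15 (chr10:80292416-80292445, plus strand) to 11 bases at Rps18 (chr17:33955651-33955680, minus strand). At Rps19 (chr7:24884661-24884690, plus strand) the run is 4 bases, at Rpl13 (chr8:123102335-123102364, plus strand) 9, and at Rpl18 (chr7:45718056-45718085, plus strand) 10. The run is 5 bases at Rpsa (chr9:120127751-120127780) and Rplp0 (chr5:115559452-115559481), 6 at Rps2 (chr17:24720048-24720077), 7 at Rpl12 (chr2:32961697-32961726) and 10 at the pseudogene Rpl32l (chr10:20208424-20208453), all on the plus strand. The marked runs of Rps15, Rpl13 and Rplp0 lie wholly before the annotated start. A window without a long run says only that these letters are not next to the annotated start.

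Of all gene counts, ribosomal protein messages made up 1.34% in isotype 1, 1.13% in isotype 2 and 0.948% in isotype 3. They made up 1.58% in anti-NK1.1 1, 1.05% in anti-NK1.1 2 and 1.24% in anti-NK1.1 3. The groups overlapped, with means of 1.14% ± 0.197 and 1.29% ± 0.271 (SD, n = 3 each), and the difference of 0.149 percentage points was smaller than either SD. Counting error was small beside this spread, since the 95% Wilson interval of each share was no wider than 0.00472 percentage points on either side. Across all libraries the share varied 1.67-fold, from isotype 3 to anti-NK1.1 1. Without anti-NK1.1 1 the difference between the groups was 0.0033 percentage points, without isotype 3 it was 0.053, without isotype 1 it was 0.249 and without anti-NK1.1 2 it was 0.272.

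No ribosomal protein gene was called between the groups, and none of the 14520 genes was (edgeR's quasi-likelihood test, adjusted p under 0.05, 0% called). At an unadjusted p under 0.05 there were 0 members, against 950 genes or 6.54% of all tested genes. DESeq2 also called 0 members, against 137 of 15283 genes, 0.896%. The smallest p among members was that of Rps19, 0.083, with an adjusted p of 0.743. Of the 84 members, 82 had an estimate above 0, that is higher in the anti-NK1.1 group, against 50.9% of all genes. Their median log2 change was 0.25, a 1.19-fold difference, with a median standard error (SE) of 0.28 per gene, and the median over all tested genes was 0.01. The members vary together between libraries, so their number adds little to the 3 libraries of each group. The median was 0.09 without isotype 3 and 0.09 without anti-NK1.1 1, but 0.44 without isotype 1 and 0.43 without anti-NK1.1 2, and it was -0.22 without anti-NK1.1 1 and 3 together. Without anti-NK1.1 2, edgeR called 129 genes, 0.861% of those tested, and 0 of them were members. In that fit 14 members, 16.7%, had an unadjusted p under 0.05, near the 16.1% of all tested genes.

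**Figure D1:**
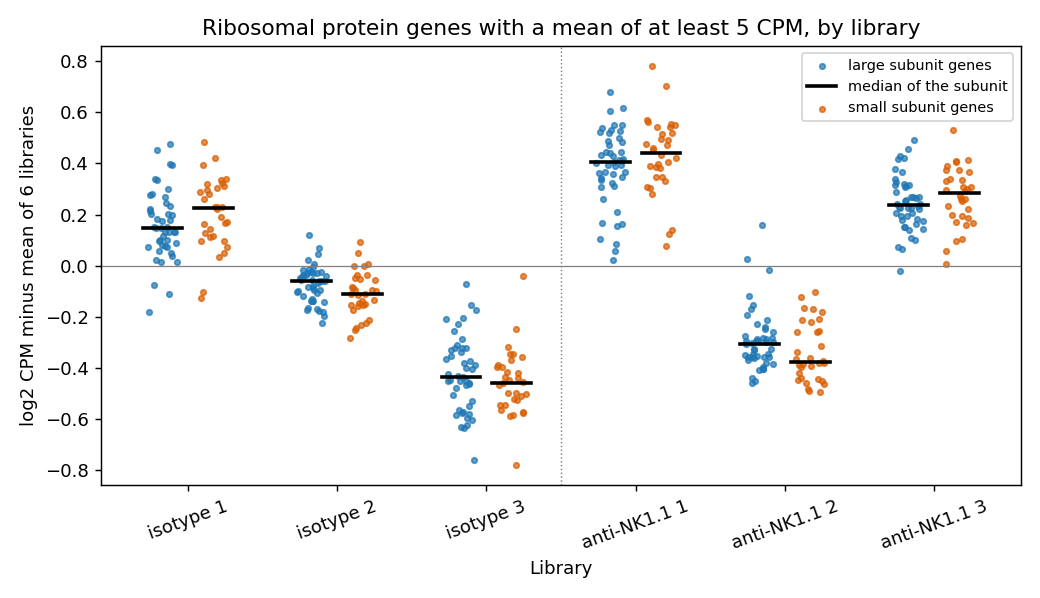
Log2 CPM of each ribosomal protein gene minus its mean over all libraries (vertical axis) in each library (horizontal axis), for the 78 members with a mean of at least 5 CPM, coloured by subunit, with bars at the median of each subunit. Isotype 3 and anti-NK1.1 2 lie low, and anti-NK1.1 1 and 3 lie high, with the large and small subunit genes at similar heights.

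The order of the libraries was shared by most members. Anti-NK1.1 1 was the highest library for 62 members, 73.8%, where it was the highest for 22.1% of all tested genes. Isotype 3 was the lowest for 63 members, 75.0%, against 20.4%. Both held for 49 members, 58.3%, against 7.72% of all genes. Anti-NK1.1 3 was the highest for 13 members, 15.5%, near its background of 17.7%. Anti-NK1.1 2 was the lowest for 17 members, 20.2%, against 11.6%. The members thus moved as a block between single libraries, and each group held a low library. The median member lay 0.16, -0.09 and -0.44 from its mean over all libraries on the log2 scale in isotype 1 to 3, and 0.41, -0.33 and 0.26 in anti-NK1.1 1 to 3. The summed neutrophil markers did not follow this order: anti-NK1.1 1 and 2, where the median member was highest and second lowest, held 40484 and 40417 CPM. The 11 endothelial markers shared the extremes of the members, with 1269, 1359 and 706 CPM in isotype 1 to 3 and 2203, 1630 and 1476 CPM in anti-NK1.1 1 to 3. Of the 10 tested, 3 were highest in anti-NK1.1 1 and lowest in isotype 3. The neuronal sum was also highest in anti-NK1.1 1, and its lowest library was isotype 2. The part of these cells in the order of the members was not tested.

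Groups that did not overlap were rare among members. Only Rpl5 and Rpl39l, 2.38% of members, had all anti-NK1.1 libraries above all isotype libraries, and so did 7.73% of all tested genes. No member was lower in every anti-NK1.1 library, against 7.59% of all genes.

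Among small subunit proteins, Rps19, Rps15 and Rpsa had the smallest p. Rps19 (chromosome 7, 24884371 to 24889806, GRCm38), a protein of the subunit's head that is mutated in Diamond-Blackfan anaemia, stood at 202, 203 and 151 CPM in isotype 1 to 3 and at 296, 181 and 313 CPM in anti-NK1.1 1 to 3. Its log2 difference was 0.51 ± 0.26 (SE). Rps15 (chromosome 10, 80292453 to 80294114), needed for export of the small subunit from the nucleus, had 187, 147 and 117 CPM against 285, 146 and 215 CPM, a log2 difference of 0.52 ± 0.29. Rpsa (chromosome 9, 120127689 to 120132369), a ribosomal protein also known as the laminin receptor, had 104, 114 and 82.8 CPM against 145, 106 and 144 CPM, a difference of 0.39 ± 0.24. In each of these genes anti-NK1.1 2 lay within the isotype range and anti-NK1.1 1 and 3 above it.

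Other named small subunit genes differed by less than these. Rps2, near the entry channel of the messenger RNA, differed by 0.36 ± 0.26 on the log2 scale, and Rps27a, made as a fusion with ubiquitin, by 0.24 ± 0.28. Rps3, which lies at the entry channel and also acts in DNA repair, differed by 0.22 ± 0.26. Rps6, the subunit's target of S6 kinase, stood at 106, 99.4 and 68.9 CPM against 98.4, 80.4 and 114 CPM, a log2 difference of 0.09 ± 0.26. Here the highest library was anti-NK1.1 3 and isotype 1 lay above anti-NK1.1 1. Rps14 had 495, 346 and 271 CPM against 592, 284 and 530 CPM, a difference of 0.34 ± 0.32.

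In the large subunit, the stalk proteins Rplp0, Rplp1 and Rplp2, which recruit translation factors, differed in size of change. Rplp1 had 243, 192 and 148 CPM against 352, 183 and 251 CPM, a log2 difference of 0.43 ± 0.29. Rplp0, the anchor of the stalk, differed by 0.32 ± 0.25, and Rplp2 by 0.22 ± 0.30. Rpl13 had 226, 229 and 195 CPM against 324, 192 and 334 CPM, a difference of 0.39 ± 0.25, and Rpl18 had 156, 162 and 122 CPM against 225, 136 and 215 CPM, a difference of 0.39 ± 0.26. In Rplp1, Rpl13 and Rpl18, anti-NK1.1 1 and 3 lay above all isotype libraries and anti-NK1.1 2 did not. Rpl13a, which also silences inflammatory messages in myeloid cells, differed by 0.35 ± 0.30, Rpl10, which joins the subunit late in its assembly, by 0.32 ± 0.25, and Rpl41, the shortest of the proteins, by 0.25 ± 0.31. The other members among the 12 with the smallest p were Rpl21, Rpl12 and Rps18, with log2 differences of 0.33, 0.37 and 0.36.

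Rpl5 and Rpl11 form, with ribosomal RNA of the large subunit, a particle that binds and inhibits Mdm2, the ligase that degrades p53. Rpl5 (chromosome 5, 107900502 to 107909005) stood at 66.5, 60.7 and 48.5 CPM with the isotype antibody and at 72.0, 71.7 and 69.2 CPM with anti-NK1.1. The groups did not overlap, yet the log2 difference was 0.28 ± 0.24 with an unadjusted p of 0.27. It was 0.59 with length and GC correction and 0.16 without isotype 3. Rpl11 had 92.9, 79.4 and 67.1 CPM against 112, 67.5 and 99.2 CPM, a difference of 0.22 ± 0.26, with overlapping groups. Of Rpl5's windows of 75 bases, 92.5% also occur in another annotated gene, so its count depends on how such reads were assigned.

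Rpl4, Rpl3 and Rpl7, core proteins of the large subunit, had nearly equal means in the groups. Rpl4 had 330, 323 and 306 CPM against 327, 328 and 317 CPM, and its highest library was 1.08 times its lowest, the smallest spread of the 78 members with a mean of at least 5 CPM. Its log2 difference was 0.02 ± 0.19. Rpl3 differed by -0.00063 ± 0.20 and Rpl7 by 0.01 ± 0.23. The libraries of Rpl7 still spread 1.42-fold, with 214, 163 and 157 CPM against 190, 151 and 195 CPM. At the other end, Rps21 spread 2.51-fold, from 81.0 CPM in isotype 3 to 203 CPM in anti-NK1.1 1, and the median spread was 1.86-fold.

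The spread of a member between libraries went with the length of its transcript. Over the 78 members, the ratio of the highest to the lowest library correlated with annotated length at Spearman's rho = -0.535 and Pearson's r = -0.49, a description across genes that share the same libraries. The 26 shortest transcripts (271 to 589 nt) had a median spread of 2.02-fold, and the 26 longest (899 to 3706 nt) of 1.74-fold. The difference between the groups had no such relation: log2 changes correlated with length at rho = -0.023, and the medians of the shortest and longest were 0.25 and 0.23.

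**Figure D2:**
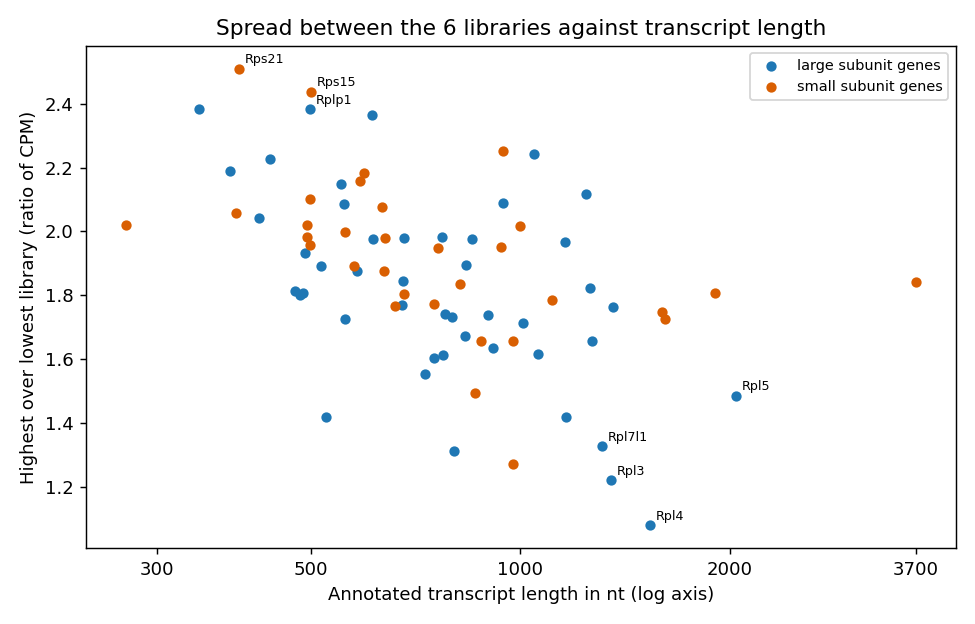
Ratio of the highest to the lowest library in CPM (vertical axis) against annotated transcript length in nt (log horizontal axis) for the 78 members, coloured by subunit. Short transcripts such as Rps21 reach 2.51-fold, and Rpl4 is lowest at 1.08-fold.

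Over the whole transcriptome the libraries also differed in their relation to transcript length. Over all tested genes with a length, the log2 deviation of a gene in a library correlated with length at rho = -0.013, 0.043 and 0.33 in isotype 1 to 3 and at -0.16, 0.25 and -0.31 in anti-NK1.1 1 to 3. Isotype 3 and anti-NK1.1 2, where long transcripts were relatively high, were the libraries with the lowest ribosomal protein levels. The order was not the same throughout. Anti-NK1.1 3 had the most negative correlation, yet its median member, at 0.26, lay below that of anti-NK1.1 1, at 0.41. Ribosomal protein transcripts are short: the median length was 705 nt for tested members and 2793 nt for tested genes. A member was given its shortest transcript with the principal coding sequence, and each gene of the whole set its principal transcript. These medians are therefore not directly comparable. The correlations over all tested genes and the correction below used principal transcripts throughout. The relations of spread and log2 change to length among the members used their shortest transcripts with the principal coding sequence. After a correction for transcript length and GC content in each library, the median member lay 0.09, -0.12 and -0.02 from its mean in isotype 1 to 3 and 0.18, -0.17 and 0.03 from it in anti-NK1.1 1 to 3. With that correction the median log2 difference between the groups was 0.04, and 49 members were above 0 and 35 below. Rps19 then stood at -0.10 and Rpl13 at -0.15, while Rpsa stood at 0.41. In that edgeR fit 1 member, 1.19%, had an unadjusted p under 0.05, against 1141 of 14520 tested genes. The part of transcript length or GC content in the order of the members was not tested.

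**Figure D3:**
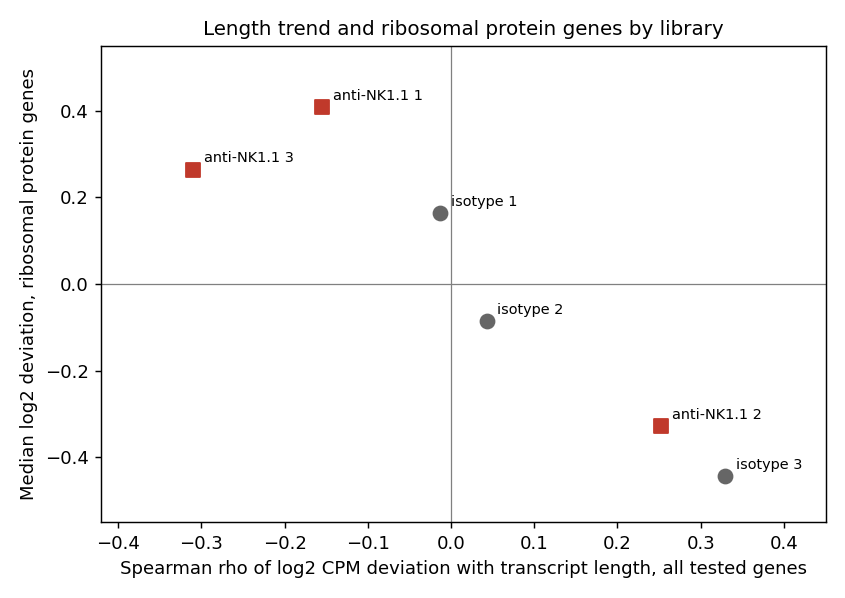
Median log2 deviation of the members (vertical axis) against the Spearman correlation of log2 deviation with transcript length over all tested genes (horizontal axis), with 1 point per library. Isotype 3 and anti-NK1.1 2 lie at the right with positive correlations and low members, and anti-NK1.1 1 and 3 at the left.

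The subunits moved together in most libraries, and least closely in isotype 1. There the mean log2 deviation was 0.02 for large and 0.23 for small subunit members, and the medians were 0.13 and 0.23. Rows near 0, such as Rpl39l with 0 counts in isotype 1, enter these means. The mean log2 deviation of large subunit members minus that of small subunit members was -0.22, 0.02 and 0.07 in isotype 1 to 3 and 0.00, 0.11 and 0.02 in anti-NK1.1 1 to 3. The groups overlapped, and the means differed by 0.09, where the SD was 0.15 in the isotype group and 0.06 in the anti-NK1.1 group. This difference was 0.0011 without isotype 1 and 0.0085 with medians in place of means. It was 0.14 without isotype 3 and 0.053 without anti-NK1.1 2. Small subunit genes supplied 45.1% to 47.3% of member counts in every library. The median log2 difference between the groups was 0.25 for 51 tested large subunit genes and 0.24 for 33 small subunit genes.

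Levels per length were far from equal between members. On a scale of CPM per kb of annotated transcript, the 78 members with a mean of at least 5 CPM spanned 31.7 for Rpl5 to 1071 for Rps29, a 33.8-fold range, and 68 of them lay between 50 and 500. Rpl5 was given a transcript of 2045 nt, against a median of 705 nt for tested members, so the low end depends on the transcript chosen. After Rps29 came Rpl32 at 730 and Rps14 at 703. Rps29 and Rps14 are small subunit proteins and Rpl32 belongs to the large subunit. Rps29 had 528, 372 and 284 CPM against 585, 286 and 452 CPM and a log2 difference of 0.16 ± 0.31, and Rpl32 differed by 0.24 ± 0.27. The neighbours Rpl32 and Rps14 did not differ beyond their spread, since their libraries ranged from 509 to 963 and from 454 to 991 CPM per kb.

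**Figure D4:**
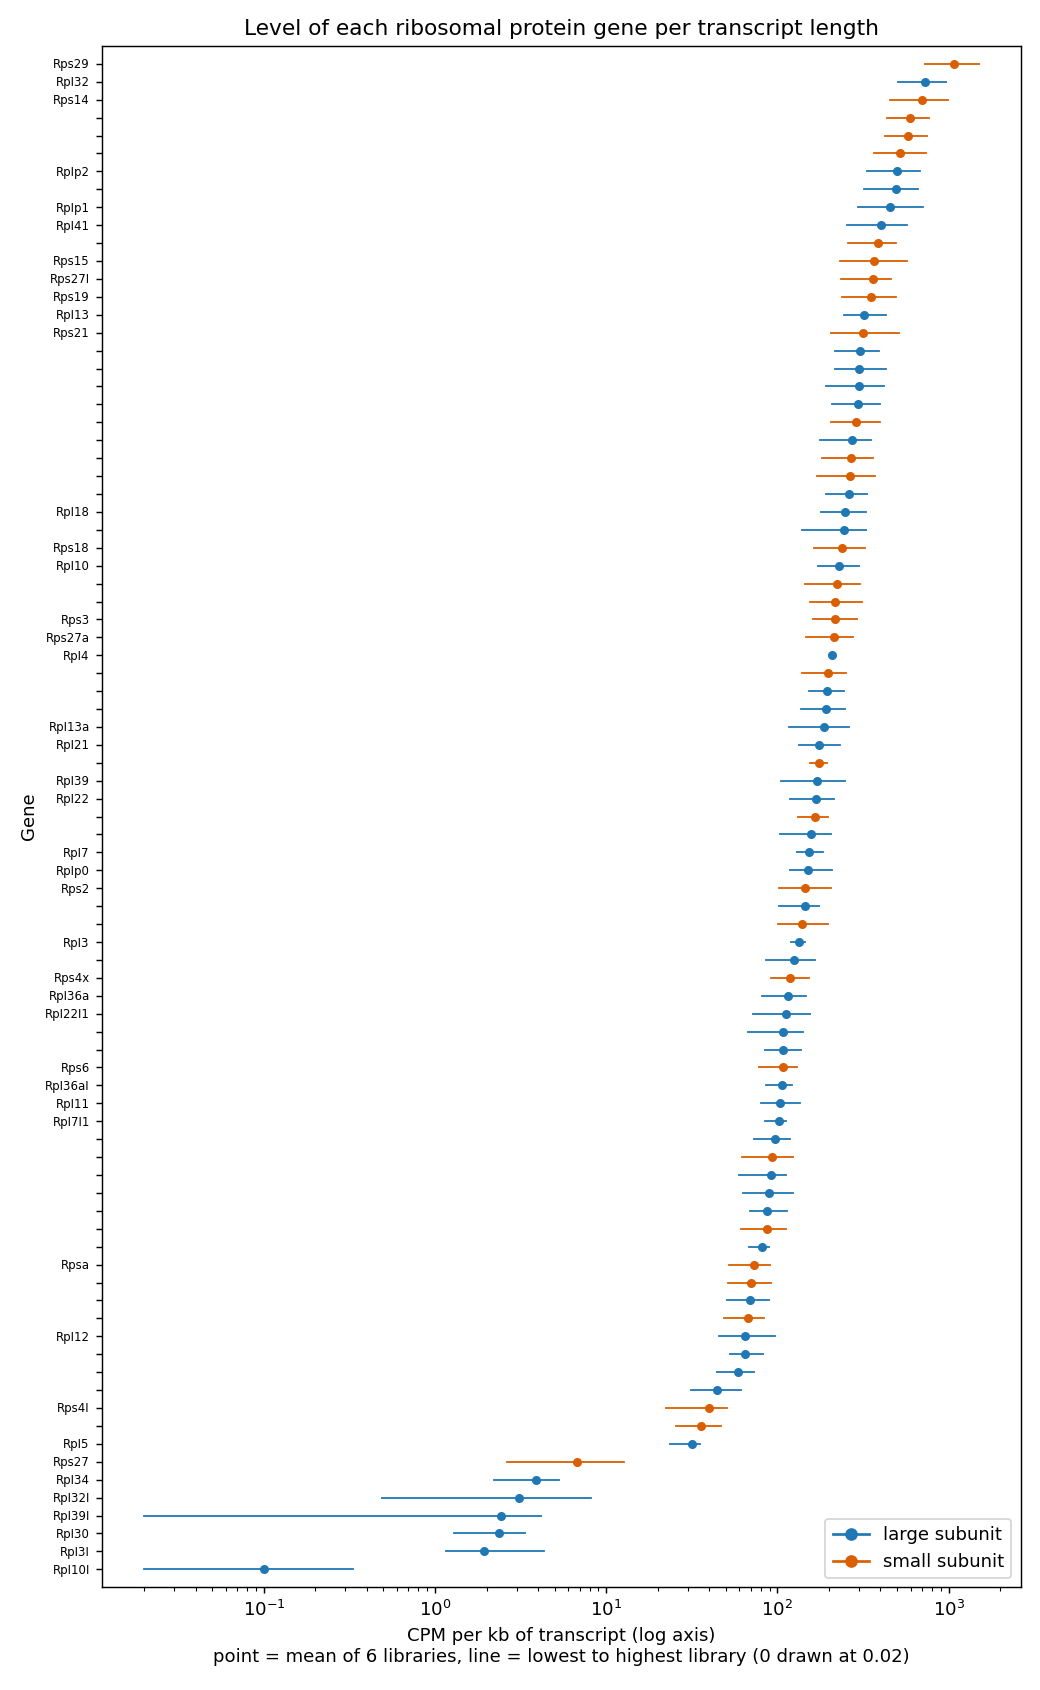
CPM per kb of transcript (log horizontal axis) for the members with counts (vertical axis, with the members described in the text labelled), with points at the mean of all libraries, lines from the lowest to the highest library and zeros drawn at 0.02. Rps29 is highest at 1071, and 6 tested members, from Rps27 at 6.76 down to Rpl3l at 1.93, lie apart from the rest.

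The 6 tested members more than 10-fold below the median level per length of 176 were Rps27, Rpl34, Rpl32l, Rpl39l, Rpl30 and Rpl3l. Rps27, Rpl34 and Rpl30 encode standard parts of the ribosome. Rps27 (chromosome 3, 90212522 to 90213651) had 157, 85 and 45 counts against 52, 31 and 74. Rpl30 had 69, 39 and 28 counts against 40, 35 and 42, and Rpl34 had 38, 82 and 54 against 50, 72 and 55. Rpl26 (chromosome 11, 68901583 to 68906989), also a standard large subunit protein, had 0 counts in all libraries. A floor of 3 counts, for counting error only, would be 0.0831 to 0.112 CPM there.

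Sequence shared with other genes was measured, since reads of 75 bases that match several genes equally may be dropped or split by a counting program. Among all windows of 75 bases of a member's transcript, a median of 50.1% also occurred in another GENCODE gene. That gene can be a copy elsewhere or can overlap the member at its own place. Exons of other annotated genes covered 91.6% of the transcript of Rps10 and 46.6% of that of Rpl5. Most members had no such overlap. For 43 members the share was over 50%, and for Rps3, Rpl3l and Rpl39l it was 0%. For Rps27 it was 98.5%, and all 267 shared windows occurred in Rps27rt, a retrotransposed copy whose own row held 0 counts in every library. Rpl34-ps1 was also at 0 in every library. Rpl37rt, a copy of Rpl37, was counted, with 479, 313 and 290 counts against 462, 295 and 334. Rpl26 shared 57.5% of windows, Rpl30 65.1% and Rpl34 41.4%. Over 84 tested members the share correlated with the log2 level per length at rho = -0.105 (r = 0.02), a description across genes. These members include Rpl3l, Rpl39l and the pseudogene Rpl32l, low rows with 0% to 13.2% of windows shared. The correlation therefore cannot speak for single low rows such as Rps27. Per length, Rpl5, at 92.5%, had 31.7 CPM per kb, Rpl13, at 79.6%, had 320 CPM per kb and Rpl3l, at 0%, had 1.93 CPM per kb. The part of the counting in these low rows was not tested.

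In the pair of Rps27 and Rps27l the paralog was counted far above its parent, so their coding starts are shown. These are the first 90 coding bases of each from GENCODE on GRCm38, with capitals at the 24 positions where they differ.
Rps27: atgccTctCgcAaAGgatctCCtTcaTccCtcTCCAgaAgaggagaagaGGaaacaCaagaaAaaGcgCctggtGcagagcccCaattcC
Rps27l: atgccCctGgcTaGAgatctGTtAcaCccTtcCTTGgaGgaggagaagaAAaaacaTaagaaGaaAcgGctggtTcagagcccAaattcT

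The coding sequences have the same length of 252 bases and are identical at 192 positions, 76.2%. Of the 425 windows of Rps27l, 51 recur in another gene. Rps27l (chromosome 9, 66946086 to 66949516), a p53-responsive relative of Rps27, stood at 213, 169 and 118 CPM against 231, 152 and 195 CPM, a log2 difference of 0.21 ± 0.27. Per length this was 360 CPM per kb, where Rps27 had 6.76. The log2 ratio of Rps27l to Rps27 counts was 6.07 ± 0.52 in the isotype group and 6.76 ± 0.67 (SD, n = 3 each) in the anti-NK1.1 group. The difference of 0.68 had an exact permutation p of 0.2, two-sided, and 0.7 after adjustment over 7 pairs. Rps27 itself differed by -0.50 ± 0.96. With 3 libraries against 3 the smallest p that the exact test can give is 0.1, so no pair could pass 0.05.

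The ratios of the other pairs overlapped between the groups as well. Rpl22l1, which can take the place of Rpl22 in the ribosome, had 81.5, 58.3 and 39.8 CPM against 85.6, 43.9 and 62.7 CPM. Rpl22 had 81.9, 84.2 and 60.6 CPM against 102, 56.3 and 90.6 CPM. Their log2 differences between groups were 0.10 ± 0.34 and 0.13 ± 0.28. The log2 ratio of their counts was -0.38 ± 0.33 and -0.38 ± 0.14, a difference of -0.001 (exact p = 0.9). Isotype 1 stood apart, at a ratio of -0.01 where the other libraries lay between -0.61 and -0.25. The ratio of Rpl36al to Rpl36a was 0.03 ± 0.18 and 0.04 ± 0.12 (exact p = 1.0). Their coding sequences are 87.7% identical, and 61.3% and 84.6% of their windows recur in another annotated gene. The ratio of Rpl7l1, a nucleolar relative, to Rpl7 was -0.46 ± 0.10 and -0.36 ± 0.14 (exact p = 0.4).

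Rps4l, a transcribed processed copy of the X-linked Rps4x, was counted at 46.1, 33.6 and 21.2 CPM against 45.8, 32.4 and 47.7 CPM. Its log2 ratio to Rps4x was -1.76 ± 0.28 and -1.54 ± 0.20, a difference of 0.22 (exact p = 0.5). The members with tissue-restricted expression were near 0. Rpl3l, a relative of Rpl3 known from heart and skeletal muscle, had 57, 56 and 82 counts against 71, 61 and 150. Its log2 ratio to Rpl3 was -6.62 ± 0.36 and -5.87 ± 0.81, a difference of 0.75 (exact p = 0.2), and anti-NK1.1 3 was the high library. Rpl39l, a relative of Rpl39 known from testis, had 0, 39 and 38 counts against 61, 66 and 40, and the difference of 2.60 in its ratio (exact p = 0.5) rests on the 0 of isotype 1. Rpl10l, a testis relative of Rpl10, was at 0 in all isotype libraries and had 9, 0 and 7 counts with anti-NK1.1. The pseudogene Rpl32l had 7, 11 and 44 counts against 86, 31 and 40. These rows held the 3 highest fitted log2 changes of the set, 1.76 ± 1.22 for Rpl32l, 1.40 ± 1.49 for Rpl39l and 0.93 ± 0.87 for Rpl3l, and none was called.

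**Figure D5:**
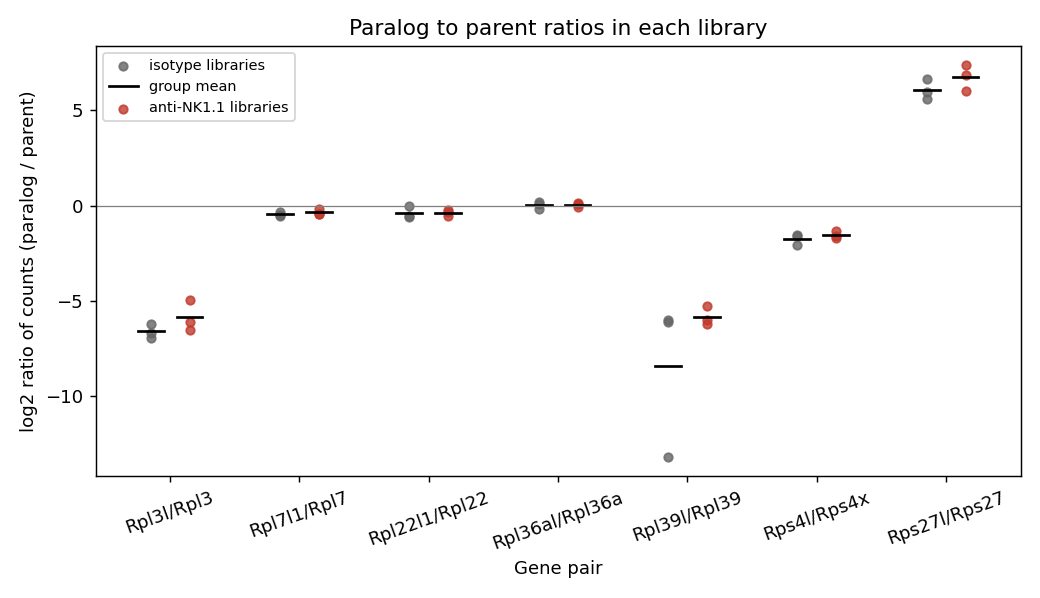
Log2 ratio of paralog to parent counts (vertical axis) for each of 7 pairs (horizontal axis), with 1 point per library and bars at the group means. Rps27l lies 5.60 to 7.36 above Rps27 on the log2 scale, and isotype 1 of Rpl39l, at 0 counts, lies apart from the other libraries.

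Ribosomal proteins with other symbols were also highest in anti-NK1.1 1. Rack1, a signalling scaffold on the small subunit, had 195, 198 and 175 CPM against 329, 171 and 283 CPM, a log2 difference of 0.46 ± 0.26. Fau, a ubiquitin-like fusion with a small subunit protein, differed by 0.17 ± 0.28. Neither passed the test.

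Genes that act with the ribosome were compared from the lists. Of 25 tested elongation and other translation factors whose messages tend to start with a pyrimidine tract, 17 were above 0 and 8 below, with a median log2 change of 0.18, and none was called by edgeR. After the correction for length and GC that median was 0.05, and it was -0.02 without anti-NK1.1 3 and -0.06 without anti-NK1.1 1 and 3. The smallest p in this list was that of Tsc22d3, a glucocorticoid-induced transcription regulator that is no translation factor. It stood at 308, 297 and 391 CPM against 545, 655 and 1090 CPM, with no overlap and a log2 difference of 1.20 ± 0.28 (edgeR adjusted p = 0.714). DESeq2 called it, and called no other gene of these lists. Eif3l, a subunit of the initiation factor that binds the small subunit, differed by -0.40 ± 0.23 and the helicase gene Eif4a2 by -0.45 ± 0.26.

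Of 43 tested ribosome biogenesis factors, 22 were above 0 and 21 below, with a median log2 change of 0.0041, and none was called. The median was -0.22 with length and GC correction and -0.17 without anti-NK1.1 2. Ncl, which encodes the nucleolar protein nucleolin, had 151, 93.6 and 135 CPM against 50.6, 109 and 35.0 CPM, a log2 difference of -0.96 ± 0.40. Here anti-NK1.1 1 and 3, the high libraries for ribosomal proteins, were low. Rrn3, an initiation factor of RNA polymerase I, differed by -0.99 ± 0.45 and Nop2, a methyltransferase of ribosomal RNA, by -0.76 ± 0.36, both with no overlap. Of 21 tested genes of the mTOR pathway and other regulators, 7 were above 0 and 14 below, with a median of -0.09, or -0.0087 without anti-NK1.1 1, and none was called. Tsc1, an inhibitor of mTOR complex activity, differed by -1.28 ± 0.65, the S6 kinase gene Rps6kb2 by 0.69 ± 0.41 and Mdm2 by -0.85 ± 0.57.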

How the data were processed

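Per the labels' protocols, Trizol-LS RNA of sorted microglia was turned into cDNA by SMART-seq v4, and Nextera XT libraries were sequenced on a NextSeq 500 as single-end reads of 75 bases. The submitters' processing notes name STAR 2.5.3a, build mm10, DESeq2 1.1, Cufflinks 2.0, bcl2fastq 2.20.0.422 and FastQC 1.0.0. Not given in the sources used here are counting program, annotation and strandedness. Although described as normalized, the table that the authors deposited holds whole-number read counts per gene with different totals and rows for unassigned reads (53.3% to 57.4% of reads in no feature), which were left out, as were 26 rows with a date as symbol.

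Counts were filtered with filterByExpr, scaled with TMM factors and tested two-sided by the quasi-likelihood test of edgeR 4.0.16 in R 4.3.3, with group as the only term and Benjamini-Hochberg adjustment over all tested genes. The SE is the absolute log2 change divided by the square root of F. CPM values use TMM-scaled library sizes. Paralog ratios used a prior count of 0.5 and an exact permutation test. Length and GC correction was a spline per library, fitted over genes and entered as offsets. DESeq2 1.42.0 was an alternative. The test was tested on simulated data. Lengths and coordinates are those of GENCODE M21 on GRCm38, the assembly also called mm10, and promoters those of RefSeq on GRCm38.p6. The kits add no molecular identifiers and mark no strand, so reads of overlapping antisense genes cannot be told apart.

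Members, lists and tests were chosen with earlier results of these data known. Named genes are the 12 members with the smallest p, the 3 largest and 3 smallest changes, all paralog pairs, a set of well-studied members, the 3 highest and lowest per length, and 3 genes per pathway list. Some genes that the rule takes are left out. Members named for spread, overlap or low counts were chosen after their values were seen.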

Additional observations from a re-analysis of the deposited data

How the results depend on the processing

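No member was called under any alternative: RLE size factors, no filter, a mean of at least 5 CPM, the replicate block, the length and GC correction, DESeq2 or leaving out libraries. Replicate numbers did not pair the libraries: deviations of same-numbered libraries correlated at 0.05, 0.03 and -0.0038. With the replicate block the median log2 change was 0.24 with 0 calls. Leaving out 1 library at a time gave medians of 0.09 to 0.44. Without anti-NK1.1 2, edgeR called 129 genes, against 0 in each of its other fits. None was a member, and 14 members (16.7%) had an unadjusted p under 0.05, as did 16.1% of all tested genes. Over the 18 members with under 25% shared windows, an alternative chosen after seeing the data, the median was 0.27. Without anti-NK1.1 1 and 3 the remaining library is assumed to vary like the isotype group, and the median was -0.22. DESeq2 called 1 gene of the pathway lists.

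Signs also turned in single genes, none of them called. With length and GC correction the log2 changes were -0.10 for Rps19, -0.15 for Rpl13, -0.19 for Rpl18, -0.047 for Rplp1, -0.024 for Rps29, -0.046 for Rps14, -0.17 for Rplp2, -0.075 for Rpl11, -0.055 for Rps6, -0.16 for Rpl41, -0.062 for Rps2 and -0.35 for Fau, and the differences in paralog ratio were 0.21 for Rpl22l1 to Rpl22, -0.13 for Rpl36al to Rpl36a and -0.25 for Rps4l to Rps4x. With replicate block and correction the log2 changes were -0.11 for Rps19, -0.15 for Rpl13, -0.19 for Rpl18, -0.050 for Rplp1, -0.032 for Rps29, -0.042 for Rps14, -0.16 for Rplp2, -0.076 for Rpl11, -0.057 for Rps6, -0.16 for Rpl41, -0.065 for Rps2 and -0.35 for Fau. Without anti-NK1.1 1 and 3 they were -0.022 for Rps19, -0.031 for Rps15, -0.17 for Rpl13, -0.10 for Rpl18, -0.075 for Rplp1, -0.23 for Rpl7, -0.13 for Rps27l, -0.44 for Rpl22l1, -0.42 for Rpl22, -0.46 for Rps29, -0.37 for Rps14, -0.27 for Rpl32, -0.18 for Rplp0, -0.27 for Rplp2, -0.028 for Rpl3l, -0.23 for Rpl11, -0.18 for Rps6, -0.30 for Rpl41, -0.14 for Rack1, -0.38 for Fau, -0.29 for Rps3, -0.15 for Rpl10, -0.22 for Rpl13a, -0.29 for Rps27a, -0.20 for Rpl12 and -0.21 for Rps18. Rpl3 was 0.028 with RLE factors, 0.026 with DESeq2, 0.038 at a mean of at least 5 CPM and 0.0017 with the replicate block. Leaving out 1 library at a time gave -0.014 to 0.056 for Rpl4, -0.076 to 0.083 for Rpl3, -0.080 to 0.18 for Rpl7, -0.93 to 0.044 for Rps27, -0.17 to 0.40 for Rpl22l1, -0.042 to 0.35 for Rpl22, -0.096 to 0.45 for Rps29 and -0.077 to 0.23 for Rps6, and differences in paralog ratio of -0.11 to 0.19 for Rpl22l1 to Rpl22 and -0.089 to 0.090 for Rpl36al to Rpl36a. The causes were not tested.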
